A study of Mus musculus with 4 samples.

Results

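The genotype-dependent part of the ruxolitinib response was measured as a difference of log2 ratios. For each gene, the log2 ratio of ruxolitinib over control in Tet2 wild-type cells was subtracted from the same ratio in Tet2 knockout cells. A positive difference thus means that the drug library lay less far below, or further above, its control in the knockout than in wild type. The genes were those at a mean of 1 FPKM or more (fragments per kilobase of transcript and 1000000 fragments) over the 4 libraries; small RNAs were left out, since 164 of 238 (68.9%) differed by 2-fold or more. They numbered 10233 of the 24340 genes in the deposited table, and 9930 of them were protein-coding. A pseudocount of 1 was added to each FPKM value before the logarithm, so that each ratio of a low gene is understated. Where the genotypes differ in level, this can make the difference of the ratios larger or smaller.

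All 4 libraries came from C57BL/6 mouse bone marrow cells that carried JAK2V617F and had been selected as Lin-cKit+, which removes cells with mature lineage markers and keeps cells with the receptor Kit. The groups were Tet2+/+ control, Tet2+/+ with ruxolitinib, Tet2-/- control and Tet2-/- with ruxolitinib, with 1 library in each. Per the series' design text, Tet2 was inactivated conditionally in blood cells and the drug was given to extracted marrow cells; that text names a Flt3ITD cross, whereas the labels of these 4 libraries name JAK2V617F. The sources used here do not give the driver of the deletion, the form of the JAK2V617F allele, the age of the mice, the number of mice per library, or the dose and time of the drug. Since no group had a second library, no difference below has a replicate check, no p-value was computed, and a difference between libraries cannot be told apart from one between genotypes or treatments. Sampling of fragments gave a standard error of counting for each difference, which covers counting error only.

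JAK2 is the kinase that relays signals from cytokine receptors to the transcription factor STAT5, and the V617F change makes it active without a cytokine. Ruxolitinib blocks JAK1 and JAK2, and direct STAT targets such as Cish and the Socs genes are commonly read as a measure of that block. Immediate early genes, among them the Egr, Nr4a and Fos families, are transcribed within minutes of a signal through kinases such as ERK, and many carry binding sites for serum response factor. Tet2 oxidises methylated cytosine, and its loss is frequent in myeloid disease together with JAK2V617F.

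The steps between the lowest values put 1 FPKM on a transcript of 1 kilobase at between 44.4 and 54.7 fragments in the 4 libraries, and between 10323 and 10375 genes reached 1 FPKM. Markers of an immature marrow cell were mixed. Kit lay between 421 and 647 FPKM, and 14 of 19 stem and multipotent progenitor markers reached a mean of 1 FPKM. Those 19 summed to between 1437 and 2247 FPKM, and the mast cell markers to between 27205 and 43171 FPKM. Of 17 granulocyte and monocyte progenitor markers, 5 reached that mean. The most abundant were Calr (596.0 to 996.0 FPKM) and Fcgr3 (175.4 to 196.9 FPKM). The others were Ctsg (27.1 to 108.2 FPKM), Gfi1 (13.1 to 16.3 FPKM) and Ms4a3 (3.31 to 5.97 FPKM). In contrast, Mpo and Elane did not exceed 1.31 and 0.0256 FPKM. Marker sums were at most 0.780 FPKM for B cells, 2.01 for T and NK cells and 2.5 for neutrophils. Xist was at 53.2 and 62.2 FPKM in the knockout libraries and at 0.0241 and 0.0309 in the wild-type libraries, and Ddx3y had the opposite pattern, so genotype and the sex of the mice cannot be told apart. The level of Tet2 itself was 4.69 FPKM without and 5.05 with the drug in wild type, and 3.62 and 4.39 in the knockout; summed over the gene, it does not test for a deleted exon and checks nothing here.

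The drug ratios of the 2 genotypes were correlated across all genes, less so among the genes with the largest wild-type ratios, and the differences at 2-fold or more were nearly all positive. The wild-type and the knockout ratio, which share no library, correlated across the 9930 protein-coding genes (Pearson r 0.71, Spearman rho 0.72), and 77.3% of genes had the same sign in both; genes are not independent replicates. Among the 4163 genes whose mean was 20 FPKM or more, the Pearson r was 0.79. Among the 75 genes with a wild-type ratio of 2-fold or more it was 0.40 (Spearman rho 0.13), with the same sign in 89.3%, and among the 49 genes as far changed in the knockout it was 0.81 (0.72); these sets were chosen on the ratios themselves. A difference of 2-fold or more was positive for 25 protein-coding genes (0.252%) and negative for 2 (0.0201%). At 1.5-fold or more, 94 were positive (0.947%) and 17 negative (0.171%). With other gene classes included, 27 genes (0.264%) were positive and 2 (0.0195%) negative at 2-fold. The median difference of protein-coding genes was -0.01, the median absolute difference was 0.084, and the central 95% of genes lay between -0.27 and 0.37. The excess of positive differences was in the tail, since 47.4% of all protein-coding genes had a positive difference. At 2-fold or more it involved 12 positive and 0 negative genes with a mean of 5 to 20 FPKM, 3 and 0 at 20 to 100 FPKM, and 0 and 0 above that; the 1923 genes under 5 FPKM gave 10 and 2.

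**Figure D1:**
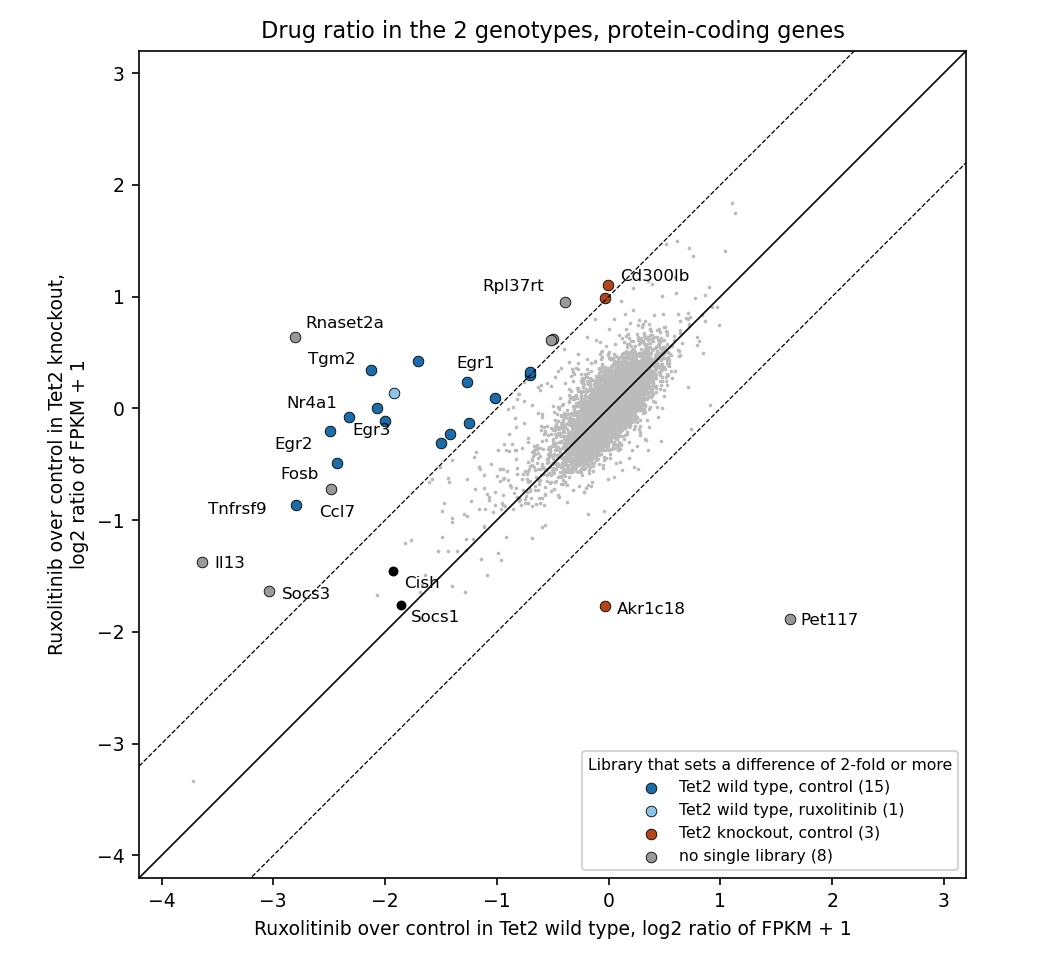
Each point is 1 of 9930 protein-coding genes, placed by the log2 ratio of FPKM + 1, ruxolitinib over control, in Tet2 wild type (horizontal) and Tet2 knockout (vertical). The solid line marks equal ratios and the dashed lines a 2-fold difference; the 25 coloured genes above the upper line had a lower ratio in wild type, 2 lie below the lower line, and colours give the library that stands apart from the other 3.

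The genes lowered by the drug in both genotypes show what the difference leaves out. In wild-type cells 71 protein-coding genes (0.715%) were 2-fold or more lower with ruxolitinib and 4 (0.0403%) as far higher, and in the knockout 33 (0.332%) were lower and 16 (0.161%) higher. Of these, 25 were lower in both, which is 35.2% of the wild-type list and 75.8% of the knockout list, and 3 were higher in both, 75% and 18.75% of the lists. Socs1, an inhibitor of JAK kinases that STAT factors induce, was at 111.4, 29.99, 115.8 and 33.5 FPKM, given here and below in wild type without and with the drug and then in the knockout without and with the drug. Its ratios of -1.86 and -1.76 gave a difference of 0.10. Serpina3g, an intracellular serpin, had the lowest wild-type ratio of these genes, -3.72, and a ratio of -3.34 in the knockout. Both genotypes' drug libraries were thus far below their controls for such genes. The same 25 genes also hold Il13 and Socs3, whose ratios were negative in both genotypes and yet differed by more than 2-fold.

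Library by library, the wild-type control held the odd value for 15 of the 25 positive differences of 2-fold or more, but for 34 of the 94 at 1.5-fold, where 40 had no single odd library. A library was said to set a difference when it was the highest or the lowest of the 4 and its gap to the nearest other library, on the log2(FPKM + 1) scale, exceeded the range of the other 3. By construction, a positive difference grows with a high wild-type control, a low wild-type ruxolitinib, a low knockout control or a high knockout ruxolitinib value. At 2-fold, the wild-type control set its 15 genes each time as the highest library; this number is 11 of 27 genes of all classes when the gap must be 2 times the range of the other 3, 19 of 50 with a pseudocount of 0.1 and 14 of 34 as TPM (values that sum to 1000000 per library), against 16 of 27 by the rule above. The wild-type ruxolitinib library set 1 gene, Ccl4, the knockout control set 2, Cd300lb and Tmem71, the knockout ruxolitinib library set 0, and for 7 genes no single library stood apart. The wild-type control was the highest of the 4 for 22 of the 25 genes. Their median ratio was -1.71 in wild type and 0.09 in the knockout; the wild-type ratio was 1.5-fold or more lower for 20 genes and as far higher for 0, while the knockout ratio was as far lower for 4, as far higher for 6 and smaller than that for 15. Of all protein-coding genes, 1.95% were as far lower and 0.413% as far higher in wild type, and 1.47% and 1.1% in the knockout; these shares are from the contrasts that chose the genes. Without drug, the knockout library lay at least 1.5-fold below wild type for 24 of the 25, and with drug the genotypes lay within 1.5-fold of each other for 17. Both contrasts enter the difference that chose the genes, and the same counts over all protein-coding genes are not given here. Over all 9930 protein-coding genes, of any difference, the library that most often stood apart was another one, the knockout control, with 1952 genes (19.7%) against 762 (7.67%) for the wild-type control, 639 for wild-type ruxolitinib and 573 for knockout ruxolitinib; 6004 genes (60.5%) had no such library.

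**Figure D2:**
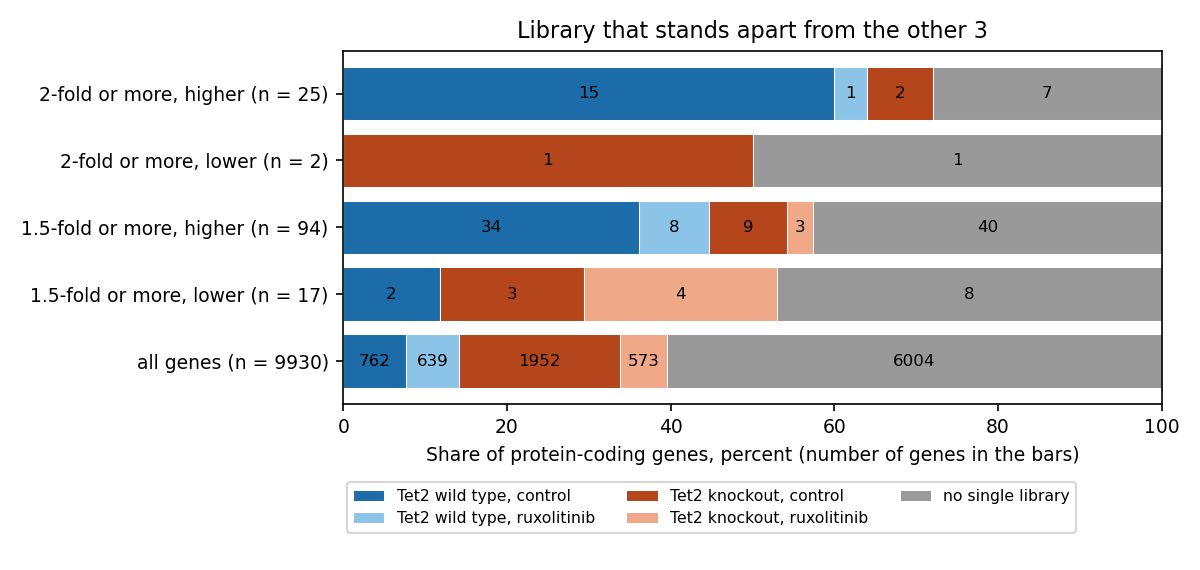
Bars give the share, in percent, of protein-coding genes whose difference is set by each of the 4 libraries or by none, with the number of genes printed inside; rows are the genes with a positive or negative difference of 2-fold and 1.5-fold or more, and all genes. The wild-type control library takes 15 of 25 genes in the top row and 762 of 9930 in the bottom row.

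Immediate early transcription factors made up 7 of the 25 positive genes, more than any other list described here: Egr1, Egr2, Egr3, Nr4a1, Fos, Fosb and Klf2. Of the 21 measured members of the immediate early list, 7 were positive at 2-fold or more, against 0.252% of protein-coding genes. Promoter windows of Egr2 and of 3 other positive genes, picked because they hold a motif and shown as background, are from RefSeq on GRCm38.p6. They run 5′ to 3′ on the gene's strand, with the motif in capitals. They are the CArG box of serum response factor in 2 Egr2 promoters (chr10:67537484-67537513 and chr10:67537787-67537816, plus strand), the cyclic AMP response element TGACGTCA in Errfi1 (chr4:150855009-150855036, plus strand), and the STAT motif TTCNNNGAA in Socs3 (chr11:117969472-117969560, minus strand) and Tnfrsf9 (chr4:150927853-150927881, plus strand).
Egr2, first start: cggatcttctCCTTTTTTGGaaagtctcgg
Egr2, second start: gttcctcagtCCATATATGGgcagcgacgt
Errfi1: ctgcgggcgtTGACGTCAcgttgtcgct
Socs3: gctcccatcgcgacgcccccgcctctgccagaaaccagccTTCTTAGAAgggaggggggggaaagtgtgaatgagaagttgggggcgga
Tnfrsf9: caacagctgaTTCCAAGAAacccttcaga

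Each promoter table entry holds 300 bases around an annotated start, and both strands were searched; the motifs sought were the CArG box, TGACGTCA, TTCNNNGAA, the AP-1 motif TGANTCA and the E-box CACGTG. Of the 15 genes set by the wild-type control library, 11 had an entry, with 20 promoters in all. The CArG box was in 4 of the 20 (20%), against 1.63% of all 32851 promoters and 1.22% of the 10377 promoters of measured protein-coding genes. All 4 belong to Egr2 and thus to 1 gene. They include the 2 windows printed above, whose motifs differ in letters. Among the measured immediate early genes, 17 had an entry, and 2 of these, Egr2 and Zfp36, held a CArG box. TTCNNNGAA was in 3 (15%), of Nfkbid and Tnfrsf9, against 8.30% and 6.95%, and TGACGTCA in 2 (10%), of Errfi1 and Nfkbid, against 1.79% and 3.16%. TGANTCA was in 1 (5%), against 7.81% and 4.79%, and CACGTG in 1 (5%), against 7.15% and 10.4%. A match describes these letters in this window and not a bound site.

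Egr2 (chromosome 10, 67537869 to 67542188, mm10), a zinc finger factor of the early growth response family, was at 21.8, 3.07, 4.32 and 3.63 FPKM. Only the wild-type control was high; the other 3 libraries lay close together, and the log2 difference was 2.29 with a counting standard error of 0.089. Egr3 (chromosome 14, 70077445 to 70082613), its relative, was at 135.5, 31.6, 40.1 and 40.2 FPKM, which gave a difference of 2.07. Egr1, the most studied of the 3, was at 41.4, 16.6, 22.2 and 26.3 FPKM, a difference of 1.5. For Egr1 and Egr3 the 2 knockout libraries were close to each other and the wild-type ruxolitinib library was the lowest.

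Nr4a1 (chromosome 15, 101266846 to 101274794), an orphan nuclear receptor induced by calcium and ERK signals, was at 37.8, 6.73, 8.46 and 7.99 FPKM. Its ratio was -2.33 in wild type and -0.07 in the knockout, a difference of 2.25. Fosb (chromosome 7, 19302696 to 19310045), a subunit of the AP-1 factor, was at 21.3, 3.13, 4.18 and 2.70 FPKM, a difference of 1.94. The wild-type control again stood alone, though here the knockout ratio, at -0.49, was negative too. Fos, the founding AP-1 subunit, was low, at 3.11, 0.727, 1.27 and 1.07 FPKM, with a difference of 1.12. Klf2, a zinc finger factor of quiescent blood cells and vessel walls, was at 32.0, 11.3, 14.3 and 12.1 FPKM, a difference of 1.20.

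The authors' deposited table gave Egr2 a q-value of 0.000746 for the drug in wild-type cells and 0.430 in knockout cells, and Nr4a1 values of 0.000746 and 0.852; it holds no test of the difference. Across the 25 positive genes, q-values in the authors' deposited table lay under 0.05 for 20 genes in wild type and for 10 in the knockout, against 625 and 946 of all 9930 protein-coding genes. With 1 library per condition, these q-values compare libraries and not conditions. Since the 25 genes were chosen on ratios of these same libraries, the counts are no separate support for them.

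**Figure D3:**
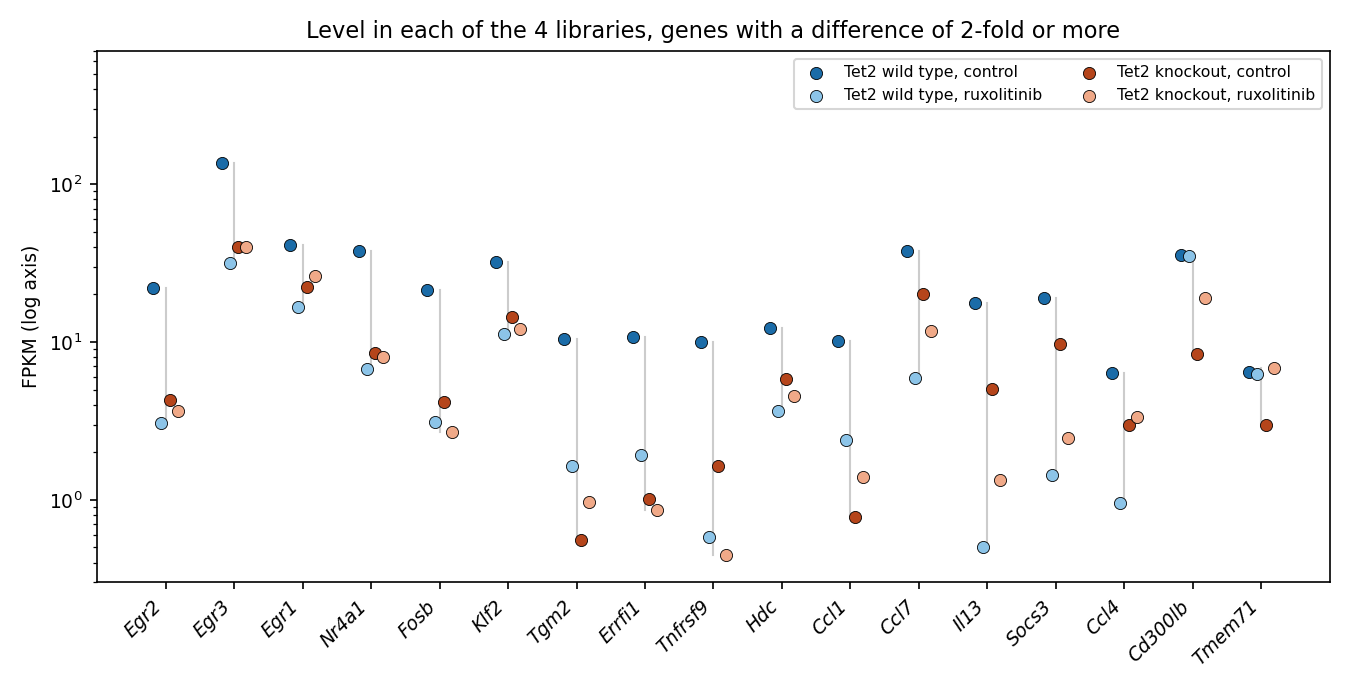
Points give the FPKM level, on a log axis, of 17 of the 25 protein-coding genes with a positive difference of 2-fold or more in each of the 4 libraries, with no error since each group is 1 library; grey lines span the range. The wild-type control (dark blue) is the top point for each gene drawn except Tmem71, and Cd300lb and Tmem71 at the right are low in the knockout control instead.

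The wider list of immediate early genes, with 21 measured members, had a median difference of 0.66. Of these, 20 had a positive difference, against 47.4% of protein-coding genes. At 1.5-fold or more, 12 were positive and 0 negative, against 0.947% and 0.171%. The median ratio was -0.75 in wild type and -0.04 in the knockout. The wild-type control held the highest value for 17 of the 21 and set the difference of 15. Junb, an AP-1 subunit, was at 114.9, 42.9, 57.2 and 41.2 FPKM, and its partner Jun at 51.6, 30.2, 22.0 and 23.2 FPKM, with differences of 0.94 and 0.82. Not every member followed: Fosl1, an AP-1 subunit that is induced late, was at 2.27, 0.90, 4.03 and 1.76 FPKM and had ratios of -0.78 and -0.86. The phosphatase Dusp2 had ratios of -0.05 and -0.02, and Ier3, a survival factor and the most abundant member, a difference of 0.16.

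Tgm2, Errfi1 and Tnfrsf9, which belong to no list described here, were also set by the wild-type control. Tgm2 (chromosome 2, 158116405 to 158146392), a transglutaminase that crosslinks proteins, was at 10.5, 1.63, 0.559 and 0.975 FPKM. Its difference of 2.47 was the highest of all genes that have a locus of their own in the deposited table, and both knockout libraries lay below the wild-type ruxolitinib library. Errfi1 (chromosome 4, 150855091 to 150868880), a feedback inhibitor of the epidermal growth factor receptor, was at 10.7, 1.92, 1.01 and 0.861 FPKM, a difference of 1.89. Tnfrsf9 (chromosome 4, 150920155 to 150946102), a costimulatory receptor of the tumour necrosis factor family, was at 10.01, 0.581, 1.64 and 0.445 FPKM. Its ratio was negative in both genotypes, at -2.80 and -0.87, and the lowest value rested on about 46.1 estimated fragments. In these 3 genes no value other than that of the wild-type control exceeded 2 FPKM. Feedback genes of MAP kinase signalling, as a list, had a median difference of 0.07. Of 12 measured genes, 9 were positive, 2 at 1.5-fold or more (Dusp5 and Phlda1) and 0 at 2-fold. The shares of protein-coding genes were 47.4%, 0.947% and 0.252%.

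Il13 and the chemokines Ccl1, Ccl4 and Ccl7, products that mast cells secrete, were also among the positive genes, but their patterns were mixed. Il13 (chromosome 11, 53631323 to 53634702), a cytokine of type 2 immunity, was at 17.7, 0.50, 5.05 and 1.34 FPKM. Both drug libraries were below both controls, and the difference of 2.26 (counting standard error 0.15) came from ratios of -3.64 and -1.37, with no single library apart. The lowest value rested on about 28.9 fragments. Ccl1 (chromosome 11, 82176666 to 82179812), a ligand of the receptor Ccr8, was at 10.1, 2.40, 0.781 and 1.39 FPKM, set by the wild-type control. Ccl4 (chromosome 11, 83662584 to 83664683), a chemokine that attracts monocytes and T cells, was at 6.39, 0.951, 2.97 and 3.37 FPKM. It was the positive gene set by a low wild-type ruxolitinib library, with a difference of 2.06 (counting standard error 0.22). Ccl7 (chromosome 11, 82045712 to 82047523), which attracts monocytes through Ccr2, was at 37.5, 5.90, 20.1 and 11.7 FPKM, a difference of 1.76.

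Of all protein-coding genes, 47.4% had a positive difference and 0.947% one of 1.5-fold or more. Over lists, the cytokines made by mast cells had 9 measured genes, all 9 with a positive difference and 4 at 1.5-fold or more. Their median difference was 0.54, which was 0.33 with a pseudocount of 5. Their median ratio was -0.92 for wild type and -0.37 for the knockout, and the wild-type control was highest for 8 of the 9 but set 0 of them. Osm, a cytokine gene that STAT5 induces, was at 97.2, 27.8, 62.3 and 26.9 FPKM. The drug libraries of both genotypes nearly met, so that its difference of 0.59 came from the controls. Csf1, a growth factor for macrophages, was at 14.3, 10.6, 6.22 and 9.44 FPKM, with ratios of opposite sign, -0.40 and 0.53. Of 8 measured chemokines, 7 had a positive difference, with a median of 0.52, which was 0.29 with no filter on low values and also at a mean of 5 FPKM or more. The exception was Ccl6, which was at 0.654, 0.606, 17.1 and 8.58 FPKM: it was hardly present in wild type, so the difference of -0.88 was that of the knockout ratio.

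STAT5 and cytokine feedback targets, the genes nearest to the kinase that the drug blocks, had nearly equal median ratios in both genotypes. In each genotype, 10 of the 19 measured genes were 1.5-fold or more lower with ruxolitinib, the median ratio was -0.60 for wild type and -0.59 for the knockout, and the median difference was 0.09. Single members still leaned to one side: 13 of the 19 had a positive difference, against 47.4% of protein-coding genes. The wild-type control was the highest library for 12 of them all. A difference of 1.5-fold or more was positive for 3 genes, Socs3, Dusp5 and Osm, against 0.947% of protein-coding genes, and negative for 0. Socs3 (chromosome 11, 117966087 to 117969366), an inhibitor of cytokine receptors that STAT3 strongly induces, was at 19.0, 1.43, 9.77 and 2.47 FPKM. It was low in both drug libraries, with ratios of -3.04 and -1.63 and a difference of 1.41. Dusp5, a phosphatase of ERK, was at 9.86, 2.63, 4.23 and 2.37 FPKM, a difference of 0.95 set by the wild-type control. Cish had a difference of 0.47, Pim1 of 0.39, Socs2 of 0.01, Myc of -0.02 and Bcl2l1 of -0.04. For Cish and Pim1 the knockout control was below the wild-type control, at 113.8 against 174.1 and at 98.6 against 148.4 FPKM, while the drug libraries were closer, at 40.7 against 45.1 and at 48.3 against 55.5.

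**Figure D4:**
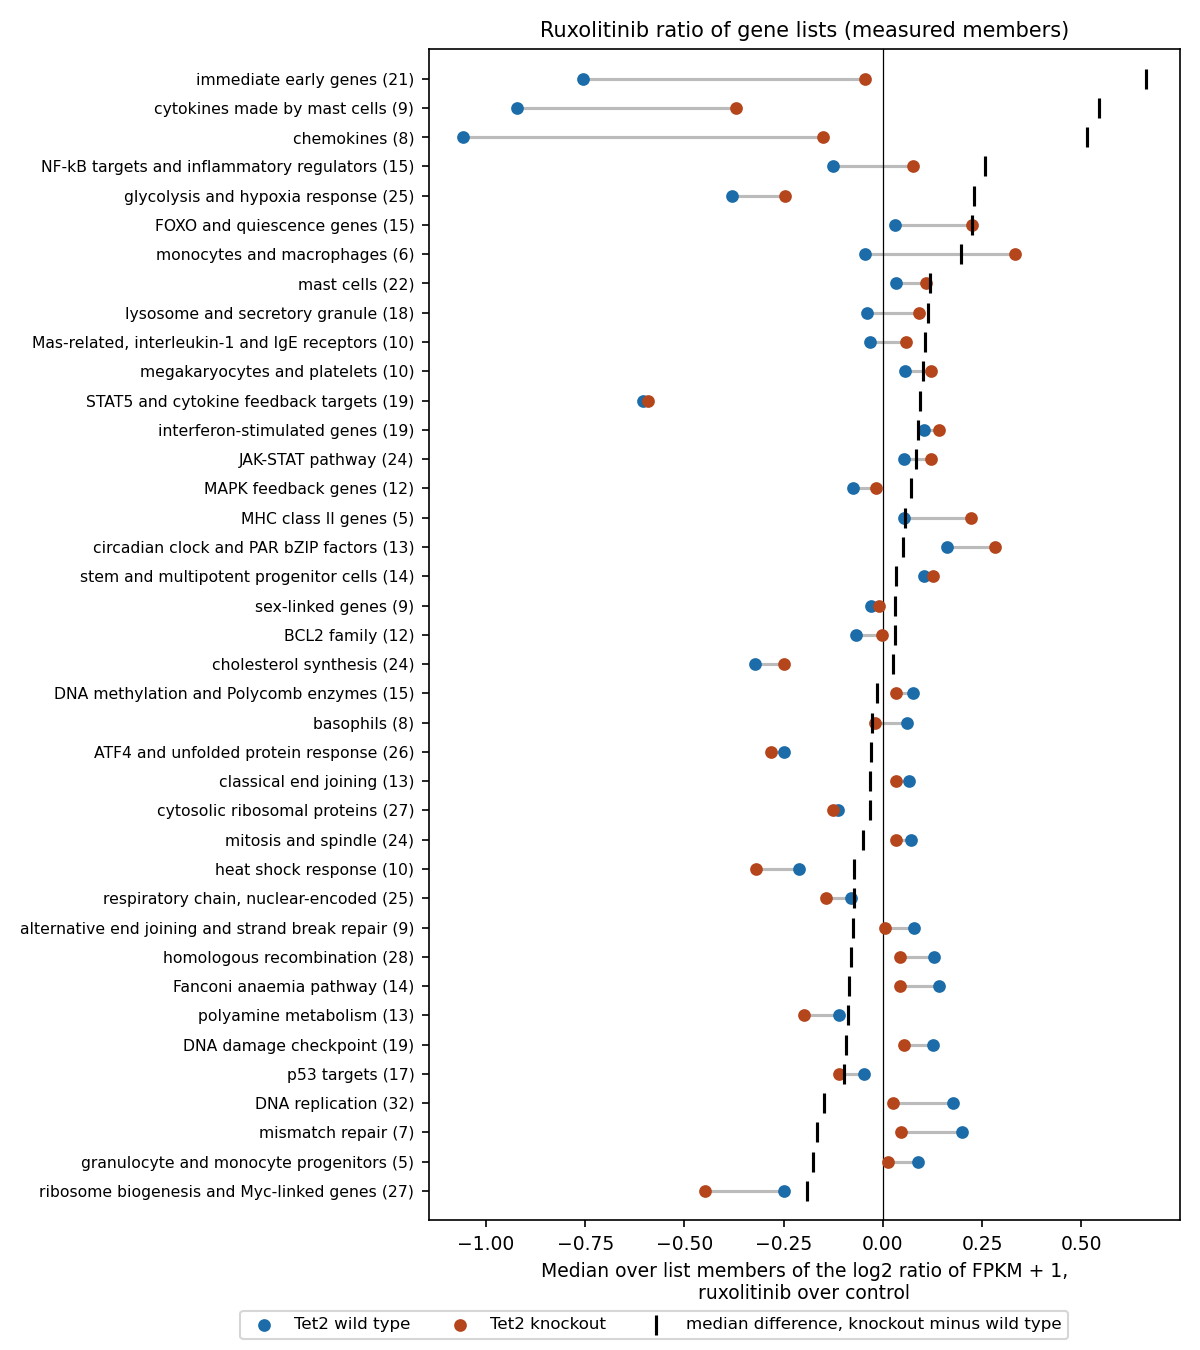
For each of the 39 gene lists with at least 5 measured members (number in brackets), dots give the median log2 ratio of FPKM + 1, ruxolitinib over control, in Tet2 wild type (blue) and Tet2 knockout (red), and the black tick gives the median over genes of the difference, which need not equal the gap between the dots. Immediate early genes, mast cell cytokines and chemokines had the highest median differences (0.66, 0.54 and 0.52), ribosome biogenesis the lowest (-0.19), and the dots of the STAT5 list nearly coincide.

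Of the 39 lists, 7 had a median difference of 0.15 or more, 3 had one of -0.15 or less, and 29 lay between. Regulators and targets of NF-kB, the central factor of inflammatory transcription, had a median difference of 0.26. Positive differences were found in 15 of 15 measured genes, against 47.4% of protein-coding genes. Against 0.947% of protein-coding genes, 2 of the 15 were positive at 1.5-fold or more. They were Nlrp3, the inflammasome sensor, at 18.1, 10.8, 9.92 and 12.7 FPKM, and Tnfaip2, at 17.1, 28.7, 11.0 and 31.4 FPKM. Nlrp3 was lower with the drug in wild type and higher with it in the knockout, at ratios of -0.70 and 0.33, whereas Tnfaip2 was higher with the drug in both, at 0.72 and 1.43. Nfkbid, a nuclear regulator of NF-kB that is not on the list, was at 18.8, 11.1, 10.8 and 13.6 FPKM, a difference of 1.01.

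Glycolysis and hypoxia genes had a median difference of 0.23. Of 25 measured genes, 20 were positive and 4 so at 1.5-fold or more, against 47.4% and 0.947% of protein-coding genes. Aldoc, an aldolase isoform, was at 24.0, 12.4, 12.6 and 12.5 FPKM, high in the wild-type control and equal in the other 3. Ndrg1, a hypoxia-induced gene, was at 38.0, 41.3, 36.0 and 71.0 FPKM, and thus one of the 3 protein-coding genes at 1.5-fold or more that the knockout ruxolitinib library set. The growth factor Vegfa and the kinase Pdk1, the remaining 2, both had a difference of 0.62. FOXO and quiescence genes had a median of 0.22 with 14 of 15 positive; here the median ratio was 0.03 for wild type and 0.23 for the knockout, and the knockout control was the lowest library for genes such as Pik3ip1, a brake on PI3 kinase, at 31.4, 49.0, 18.5 and 33.9 FPKM. The 2 members at 1.5-fold or more differed from that pattern: Klf2, described above, and Irs2, an adaptor of the insulin receptor at 2.22, 0.441, 1.06 and 0.435 FPKM, were set by a high wild-type control.

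Mast cell markers had a small median difference, 0.12 over 22 measured genes. Of these, 18 were positive, against 47.4% of protein-coding genes, and 4 were so at 1.5-fold or more, against 0.947%. Hdc (chromosome 2, 126593660 to 126618678), the enzyme that makes histamine, was at 12.2, 3.68, 5.85 and 4.52 FPKM, a difference of 1.19 set by the wild-type control. The chymase Mcpt2 was at 2085, 3518, 793.7 and 2043 FPKM, a difference of 0.61 set by a low knockout control. Mrgprb2, a receptor of mast cells for peptides and drugs, was at 0.769, 1.52, 10.01 and 29.6 FPKM, a difference of 0.96. Its wild-type values were low, so the pseudocount shrank that ratio more than the knockout one and enlarged the difference. The IgE receptor chain Fcer1a had a difference of -0.02, Kit of 0.01 and Cma1 of 0.08. The summed level of the mast cell markers was 39380, 43171, 27205 and 31699 FPKM, higher with the drug in both genotypes; in bulk RNA fewer cells of a type and less RNA per cell cannot be told apart. Its part in the differences above was not tested. Of 18 monocyte and macrophage markers, 6 were measured and all 6 had a positive difference, with a median of 0.20. At 1.5-fold there was 1 gene, the lysozyme Lyz2, at 2.41, 4.15, 2.36 and 6.61 FPKM. With a pseudocount of 5, the difference of Cx3cr1 was -0.026 and that of Adgre1 0.031, so the shared sign depends on the pseudocount. The summed level of the list was 60.3, 63.7, 38.9 and 47.8 FPKM.

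The knockout control library set a smaller group of positive genes. Cd300lb (chromosome 11, 114922781 to 114934386), an activating receptor of myeloid cells, was at 35.5, 35.3, 8.34 and 19.1 FPKM. Its 2 wild-type libraries were nearly equal, with a ratio of -0.01, and it had a ratio of 1.10 in the knockout, where both libraries stayed below wild type. Tmem71, which codes for a membrane protein, was at 6.45, 6.29, 2.96 and 6.85 FPKM, so that its knockout drug library was at the wild-type level. Its difference of 1.02 and that of Nfkbid were the 2 just inside the 2-fold threshold; Hist1h1c, a linker histone at 56.8, 33.1, 16.7 and 19.8 FPKM, and Csrnp1, an immediate early nuclear protein with a difference of 0.98, were the 2 just outside it. Among genes that are not protein-coding, Rn45s, the precursor of ribosomal RNA, was at 476.2, 443.7, 132.0 and 309.8 FPKM, with a difference of 1.33 set by the knockout control. The libraries had been depleted of ribosomal RNA, and the part of that step in this value was not tested. Gdap10, at 5.17, 1.87, 2.05 and 2.59 FPKM with a difference of 1.34, shares its locus with Nampt.

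Some positive genes have near-identical copies, and their values are uncertain. Rnaset2a (chromosome 17, 8128591 to 8147832), a lysosomal ribonuclease, had the largest positive difference, 3.45, at 6.04, 0.00612, 1.21 and 2.46 FPKM. Its near-identical copy Rnaset2b, which shares its locus in the deposited table, was at 1.63, 2.20, 1.39 and 1.15 FPKM, and the authors' deposited table gave Rnaset2a q-values of 0.469 in wild type and 0.797 in the knockout. Rpl37rt, a retrotransposed copy of the ribosomal protein gene Rpl37, was at 6.27, 4.56, 3.10 and 6.95 FPKM with a difference of 1.34, while Rpl37 itself lay between 151.7 and 173.3 FPKM with a difference of -0.05. The other 2 positive genes without a single odd library were low: Nrgn, a calmodulin-binding protein, at 2.20, 1.24, 2.5 and 4.34 FPKM, and 1700029I15Rik at 2.77, 1.68, 1.24 and 2.43 FPKM, with the largest counting standard error of the 25, 0.31.

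Negative differences were few and mostly small. Only 2 protein-coding genes reached 2-fold. Akr1c18 (chromosome 13, 4132627 to 4150631), an aldo-keto reductase of steroids, was listed at 0.0234 FPKM without and at 0 with the drug in wild type, and at 4.47 and 0.610 FPKM in the knockout. Its difference of -1.73 was therefore set by the knockout control and is a ratio within the knockout alone. Pet117 (chromosome 2, 144368983 to 144407675), an assembly factor of cytochrome c oxidase, was at 0.941, 4.97, 4.53 and 0.50 FPKM, with ratios of 1.62 and -1.88 and a difference of -3.50. It shares a locus with Csrp2bp, which was at 12.8, 13.3, 14.96 and 13.1 FPKM, and the authors' deposited table gave Pet117 q-values of 0.699 and 0.680. The 2 genes just outside the threshold were Hist1h2bj and Msmp, with differences of -0.92 and -0.88. The cyclin-dependent kinase subunit Cks2 had a difference of -0.75 and the ribosomal protein Rpl17 one of -0.66. Of the 17 genes at 1.5-fold or more, 7 share a locus with another gene in the deposited table, as do 21.3% of protein-coding genes.

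Ribosome biogenesis genes had the lowest list median, -0.19, with no large difference in any member. Of 27 measured genes, 1 had a positive difference, against 47.4% of protein-coding genes. At 1.5-fold or more, 0 were positive and 0 negative, against 0.947% and 0.171%. All 27 were lower with ruxolitinib in wild type and all 27 in the knockout, with median ratios of -0.25 and -0.45. The knockout control was the highest library for 27 of 27 genes and set the difference of 22. The nucleolar methyltransferase Nop2 was at 33.5, 28.0, 46.2 and 31.4 FPKM, and the box C/D protein Nop58 at 78.3, 66.0, 116.1 and 83.6. In each, the knockout ruxolitinib library was near the wild-type control. Rrs1, a ribosome assembly factor, had the lowest difference of the list, -0.32, with a counting standard error of 0.055.

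**Figure D5:**
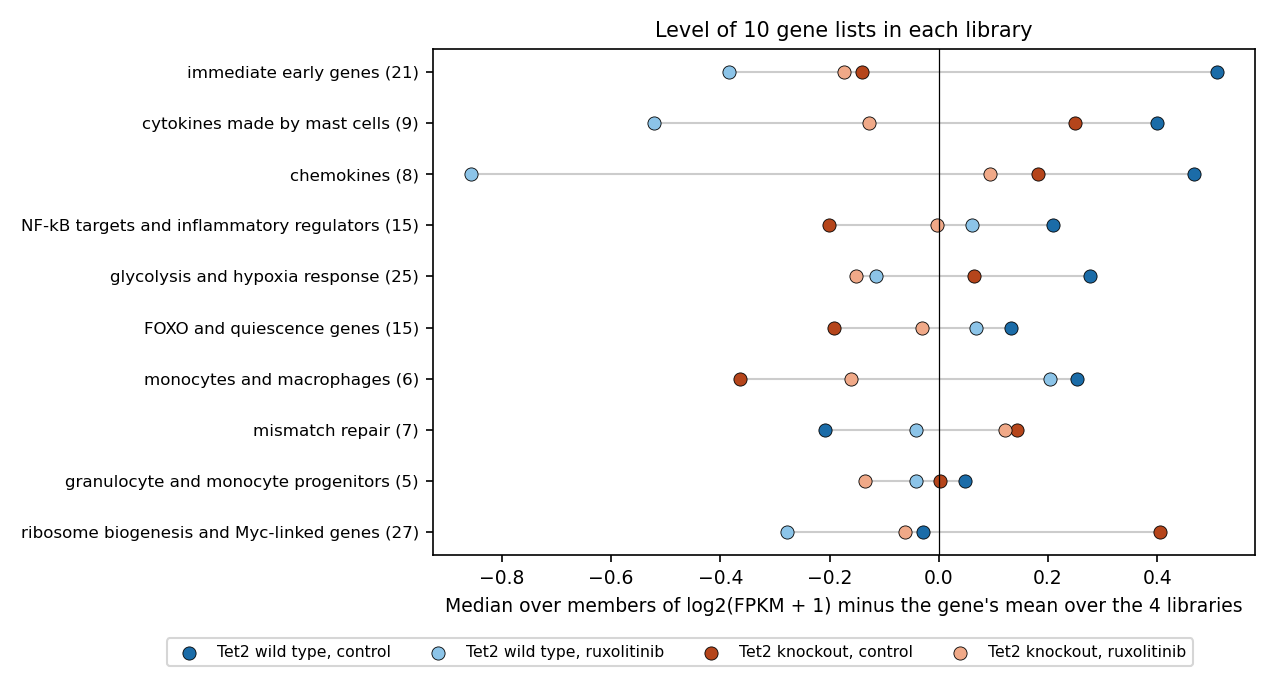
Dots give, for the 10 lists with a median difference at least 0.15 from 0 (measured members in brackets), the median over members of log2(FPKM + 1) in each library minus the gene's own mean over the 4 libraries. The wild-type control (dark blue) lies apart at 0.51 for immediate early genes, the knockout control (dark red) at 0.40 for ribosome biogenesis, and the wild-type ruxolitinib library (light blue) at -0.86 for chemokines.

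DNA replication and repair genes, the subject of the series, contributed small negative differences. Among all protein-coding genes, 47.4% had a positive difference. At 1.5-fold or more, 0.947% of them were positive and 0.171% negative. Of 32 replication genes, 2 had a positive difference and 0 reached 1.5-fold. Their median was -0.15, with a median ratio of 0.18 in wild type and 0.03 in the knockout. Mismatch repair genes had 1 of 7 positive and a median of -0.16; Msh6, which recognises mispaired bases, was at 12.6, 15.9, 21.1 and 21.8 FPKM. Homologous recombination had 7 of 28 positive and a median of -0.08. Brca1 was at 6.80, 8.11, 11.1 and 12.2 FPKM, higher with the drug in both genotypes and higher in the knockout under both treatments, and its difference was -0.10 (counting standard error 0.048). The differences of Parp1, the sensor of strand breaks, and of Lig4, the ligase of end joining, were -0.09 and -0.03. Those of Dnmt3a and Jak2 were 0.16 and 0.09.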

How the data were processed

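The submitters' processing notes name STAR, Cuffdiff and mm10, and the sources used here do not give versions, annotation or counting settings. FPKM per gene and library is the unit the authors deposited. Log2 fold changes and q-values are from the authors' deposited table of library pairs, of which 2 of 6 comparisons were used; 2 further value columns of that table were not used, and its status column marks 18 genes as failed or as having too many fragments, besides genes not tested. Gene types came from the GRCm38.p6 RefSeq table, which matched 10204 of 10233 genes, after 238 small RNAs (of 10471 genes) were left out. Depth was estimated from steps between low values of 2245 genes with 1 transcript over 1500 bases, less 200 bases; between 77.3% and 82.5% of held-out values lay within 0.15 of a whole multiple. Fragments per gene used the median GENCODE transcript length. By counting error alone, 3698 of the 9930 protein-coding differences lay beyond 1.96 standard errors.

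Lists with at least 5 measured members were described by counts and medians, without tests. Named genes were the 12 highest and 12 lowest autosomal protein-coding differences and the 4 highest and 4 lowest of other genes (each at 5 FPKM or more in a library), up to 5 members of each list with a median at least 0.15 from 0, the 2 genes on either side of the threshold, and a fixed set; others were chosen after their values were seen, among them others of the 25, and some genes are not reported here. Members, lists and thresholds were chosen with earlier results of these data known. Python 3.11.15, numpy 2.4.6, pandas 2.3.3 and matplotlib 3.10.9 were used. The steps were run on simulated data with counting error only, which do not cover other spread between libraries.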

Additional observations from a re-analysis of the deposited data

Results flagged for a closer look

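Rnaset2a and Pet117 were the 2 protein-coding genes (0.0201%) whose drug ratios went in opposite directions by 1.5-fold or more in the 2 genotypes. The difference was 3.45 for Rnaset2a and -3.50 for Pet117, and neither was tested, since each group is 1 library. Both genes share a locus with a neighbour in the deposited table, Rnaset2a with its copy Rnaset2b and Pet117 with Csrp2bp. The wild-type ruxolitinib value of Rnaset2a, 0.00612 FPKM, corresponds to about 0.623 fragments, and the knockout ruxolitinib value of Pet117, 0.50 FPKM, to about 17.9. The part of the shared loci in these values was not tested.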

How the results depend on the processing

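No paired analysis was possible because each group holds 1 library, and for the same reason leaving out a library gives no difference. The number of positive genes at 2-fold or more, 27 of all classes, became 50 with a pseudocount of 0.1, 16 with a pseudocount of 5, 16 with a mean of at least 5 FPKM, 105 with small RNAs kept and 12 at 3-fold. The negative genes, 2, became 9 and 1 with those pseudocounts, 4 with no filter, 0 with a mean of at least 5 FPKM, 4 as TPM, 88 with small RNAs kept and, in an alternative added after the data were seen, 1 among genes with a locus of their own. The wild-type control set 16 of 27 positive genes of all classes, 19 of 50 and 11 of 16 with those pseudocounts, 14 of 34 as TPM, 16 of 28 with libraries centred and 11 of 27 with a gap of 2 times the range of the others. The knockout control set 3, and 6, 1 and 1 with pseudocounts of 0.1 and 5 and with a gap of 2 times the range of the others; no single library set 7, and 16, 4 and 15 under these. With a pseudocount of 5, 13 named genes fell below 2-fold, among them Akr1c18 (-0.75), Socs3 (0.92), Hdc (0.80) and Fos (0.45), and all 116 alternative values of the 29 large differences kept their sign. Among list medians, that of immediate early genes, 0.66, lay between 0.45 and 0.88, that of chemokines, 0.52, between 0.29 and 0.69, and that of mast cell cytokines, 0.54, between 0.33 and 0.59. That of granulocyte and monocyte progenitors, -0.18, reversed to 0.00037 with no filter and was -0.05 at a mean of 5 FPKM or more. That of mismatch repair was -0.12 with a pseudocount of 5, and that of monocytes was 0.10 with a pseudocount of 5 and 0.076 with no filter. The cause of these shifts was not tested. Small RNAs, of which 164 of 238 (68.9%) differed by 2-fold or more, were left out.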

Other observations

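Outside the lists, several genes of mid to high level had a difference of 1.5-fold or more, and are given as values chosen after they were seen, in wild type without and with the drug and then in the knockout without and with the drug. Cd69, an activation antigen of blood cells, was at 145.4, 89.9, 80.1 and 81.9 FPKM, a difference of 0.72. Nabp1, a single-strand DNA binding protein, was at 182.6, 79.5, 82.3 and 62.5 FPKM, a difference of 0.80. Rhob, a small GTPase, was at 102.4, 56.9, 51.8 and 48.6 FPKM. In these 3 genes the wild-type control library was the odd one.

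Other genes were higher with ruxolitinib in both genotypes and more so in the knockout. Cd52, a surface glycoprotein of leukocytes, was at 42.3, 94.1, 22.4 and 77.5 FPKM, with ratios of 1.13 and 1.75. Dhrs3, a retinal reductase, was at 10.5, 16.6, 6.46 and 20.1 FPKM, with ratios of 0.61 and 1.5. For both, the knockout control was the lowest library. Ypel3, a protein of the yippee family, was at 56.1, 65.6, 25.05 and 53.8 FPKM, a difference of 0.85 set by the knockout control.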
